A study of Homo sapiens with 12 samples.

Results

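The comparison was between 3 parental xenografts and 3 spheroid cultures of NCI-H1299, a human cell line of non-small cell lung cancer, and it used 6 of the 12 arrays of the series. The 6 arrays were chosen by their titles, and 19775 genes were compared on them. The parental xenografts were tumours grown from parental cells labelled with a serum-containing medium. The spheroid cultures were cells labelled with a stem-cell medium: monolayers were moved into that medium, and after 7 to 10 days the floating cells were collected and kept in flasks that hinder attachment. All samples shared the line and its genotype, no added gene or drug is named for either group, and total RNA of each sample was read on 1 Affymetrix HG-U133 Plus 2.0 array. The comparison sets a tumour against floating clusters, so the monolayer of the parental line was not part of the fit. Origin in serum or in stem-cell medium, and growth as a tumour or in a flask, cannot be told apart within these 6 arrays. The host species, strain, age and site of the tumours, and whether each came from its own animal, are not stated in the sources used here. The titles call the 3 samples of each group biological replicates, without saying what was repeated. The p-values therefore measure only the spread between these samples, which may be technical in part.

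A xenograft grows attached to matrix, is fed by vessels of the host and contains host fibroblasts, endothelium and blood cells. A spheroid floats, and its cells hold mainly to each other. In both, cells at a distance from the supply can lack oxygen, which stabilises hypoxia-inducible factors and turns on genes for glucose use, collagen processing and vessel growth. Cells that pull on a matrix through integrins load actin filaments, and this drives genes under serum response factor and under YAP and TEAD. Matricellular proteins such as SPARC are secreted into the matrix and modify how cells attach to it. Spheroid culture in stem-cell medium is widely used to enrich cells with stem cell markers such as CD44 and PROM1.

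Levels are log2 expression values as deposited, and each difference is the mean of the parental xenografts minus that of the spheroid cultures, in log2 units with its standard error (SE). Array medians ran from 5.89 to 5.98 in parental xenografts and from 5.95 to 6.03 in spheroid culture. The first principal component held 43.6% of the variance and separated the groups, with parental xenografts at 21.8 to 32.6 and spheroid cultures at -40.2 to -13.7. Spheroid culture replicate 1 lay at -13.7, nearest to the tumours. On that array the actin probe sets for the 3' and 5' ends differed by 0.77, against 0.24 to 0.34 in the parental xenografts and 0.18 to 0.21 on the other 2 spheroid cultures. The same difference for the GAPDH probe sets was 0.122 on spheroid culture replicate 1. It was 0.019 to 0.118 in the parental xenografts and 0.085 and 0.089 on the other 2 spheroid cultures. The part of the actin 3' to 5' difference in the results was not tested, and calls are given with and without spheroid culture replicate 1. Vimentin (VIM), a filament protein of mesenchymal cells, was among the brightest genes in both groups, with 14.70, 14.67 and 14.67 in parental xenografts and 14.46, 14.46 and 14.32 in spheroid culture. The epithelial cadherin CDH1 read 4.41 to 4.5 in parental xenografts and 4.51 to 4.70 in spheroid culture, all below the lower quartile of the 6 arrays, 4.74.

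HBE1, MGP, EDIL3, FBN2 and SPARC had the highest differences among the genes called higher in parental xenografts, and PLD5 and CREG1 the lowest among those called lower. Calls were genes with an adjusted p under 0.05 (Benjamini-Hochberg over all genes) in limma's two-sided test. There were 164 calls, or 0.829% of the genes tested. Of these, 147 genes rose (0.743%) and 17 fell (0.0860%). At 2-fold or more, 129 rose and 14 fell. In all 164 called genes the 3 parental xenografts and the 3 spheroid cultures did not overlap, as was true of 9.63% of all genes in the higher and 10.9% in the lower direction. The counts given below for each list stand against these shares over all genes, called and without overlap. The median difference over all genes was -0.07, and 2809 genes had an unadjusted p under 0.05. An exact permutation test of 1 gene cannot go below p = 0.1 with 3 against 3 arrays, so single genes rest on the model. Because these are bulk samples, fewer cells of a type and less RNA per cell cannot be told apart.

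**Figure D1:**
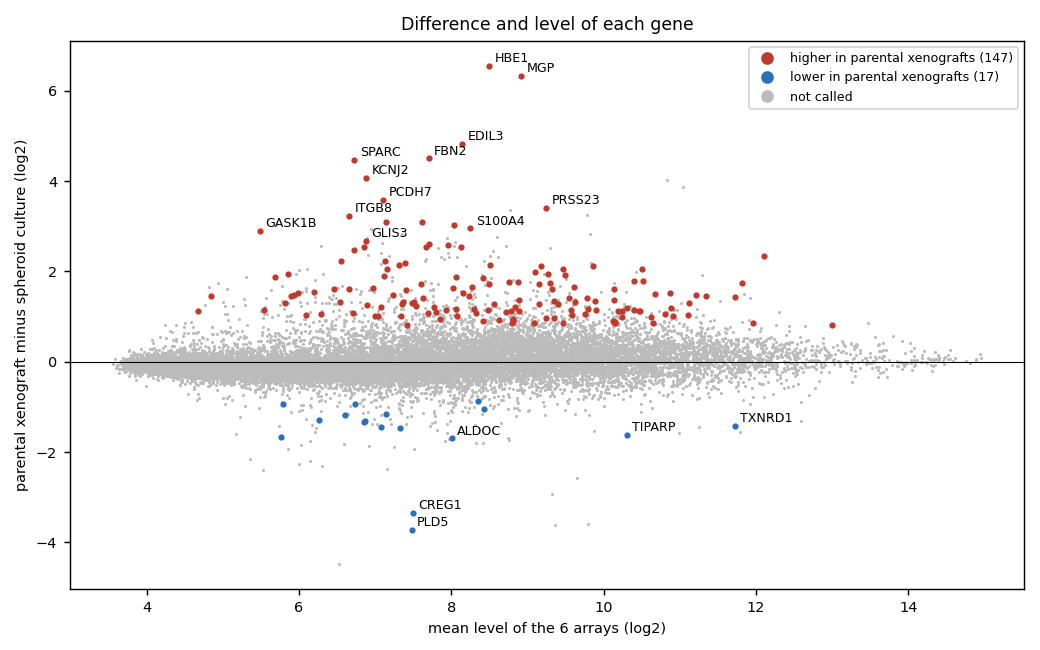
Difference between parental xenografts and spheroid culture (vertical axis, log2) against the mean level of the 6 arrays (horizontal axis, log2), 1 point per gene. The 147 genes called higher are red, the 17 called lower are blue and the other genes are grey; HBE1 and MGP stand highest, and PLD5 and CREG1 lowest among called genes.

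The number of calls moved with every array left out. Without parental xenograft replicates 1, 2 and 3 in turn, 52, 21 and 106 genes were called. Without spheroid culture replicate 1, 443 genes were called, 319 of them higher and 124 lower, and 153 of the 164 genes were among them. Without spheroid culture replicate 2 only 4 genes were called, and without replicate 3 only 15. No gene was called lower by limma without parental xenograft replicate 2 or without spheroid culture replicate 2, where 2544 and 1585 genes had an unadjusted p under 0.05 in either direction. Spheroid culture replicate 1 was the spheroid array nearest to the mean of the tumours in 101 of the 164 called genes, or 61.6%, against 31.8% of all genes. Over all genes spheroid culture replicate 3 was the nearest most often, in 42.8%. SPARC, HBE1, PCDH7 and CBLN2 were called in all 6 fits with an array left out. CBLN2, which encodes a secreted cerebellin that organises synapses, is named for this after its values were seen: it read 9.23, 9.65 and 9.31 in parental xenografts and 6.88, 6.60 and 7.09 in spheroid culture, a difference of 2.54 (SE 0.18, adjusted p = 0.0029). Of the called genes, 11 passed in at least 5 of the 6 fits and 35 in at least 3. Every other call named here was lost without at least spheroid culture replicate 2 (adjusted p up to 0.30).

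**Figure D2:**
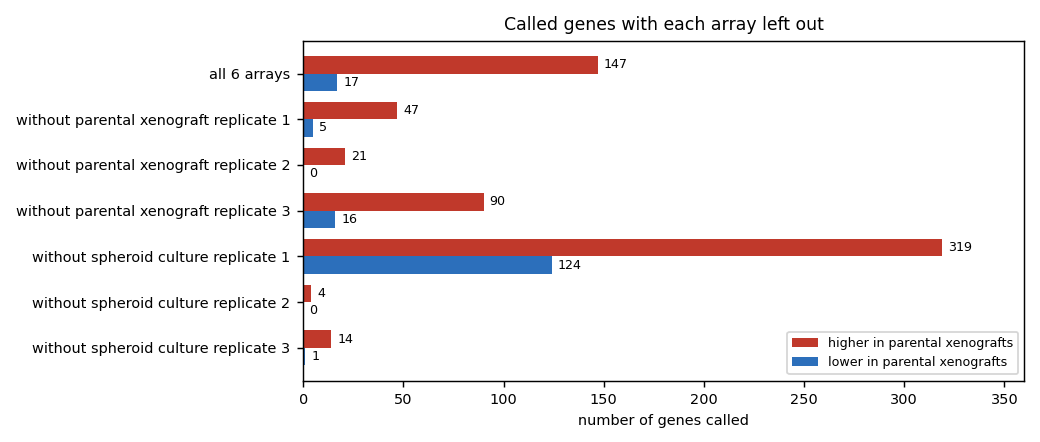
Number of genes called (horizontal axis) with all 6 arrays and with each array left out (vertical axis), higher in parental xenografts in red and lower in blue. The count of higher calls runs from 4 without spheroid culture replicate 2 to 319 without spheroid culture replicate 1, against 147 with all 6 arrays.

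SPARC, a secreted glycoprotein that binds collagen and modifies cell attachment, had the smallest adjusted p of all genes. It read 8.90, 8.98 and 9.01 in parental xenografts and 4.40, 4.56 and 4.51 in spheroid culture. The 3 arrays of each group lay close together, far from those of the other, and the spheroid values were below the lower quartile of the arrays. SPARC was 22.2-fold higher in parental xenografts (difference 4.47, SE 0.13, adjusted p = 8.4e-06). Its other probe set read 5.38, 6.70 and 5.53 in parental xenografts and 4.18, 4.50 and 4.24 in spheroid culture, again without overlap, but with only that probe set the call was lost (difference 1.57, adjusted p = 0.098). The SPARC promoter is shown because it is known for GGA repeats. In the 250 bases before the gene's start, at chr5:151686916-151687165 on the minus strand of GRCh38.p14 (RefSeq), a search for GGAGG on both strands found 9 matches, some of them overlapping, printed here in capitals. At least 1 match was present in 71.6% of 27305 promoters of that length, and as many as 9 in 1.07%.
SPARC: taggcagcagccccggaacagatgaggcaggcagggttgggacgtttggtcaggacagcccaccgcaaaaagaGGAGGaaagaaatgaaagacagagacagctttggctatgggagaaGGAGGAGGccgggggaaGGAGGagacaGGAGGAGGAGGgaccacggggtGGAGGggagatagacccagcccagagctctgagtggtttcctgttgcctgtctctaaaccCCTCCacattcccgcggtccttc

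HBE1, the embryonic epsilon chain of haemoglobin, had the largest difference of any called gene. Its level was 12.66, 11.60 and 11.06 in parental xenografts and 5.96, 4.96 and 4.72 in spheroid culture, which did not overlap. HBE1 was 94.1-fold higher on this probe set (difference 6.56, SE 0.44, adjusted p = 0.0024). The gene's other probe set did not show it: that one read 5.88, 5.84 and 5.64 in parental xenografts and 5.68, 5.75 and 5.71 in spheroid culture. HBB, the adult beta chain, read 8.23, 7.93 and 7.18 in parental xenografts and 7.18, 6.91 and 6.73 in spheroid culture, with overlap (difference 0.84, adjusted p = 0.21). None of the 6 measured erythroid markers was called, and their mean level was 5.95 to 6.49 in parental xenografts and 6.06 to 6.37 in spheroid culture.

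**Figure D3:**
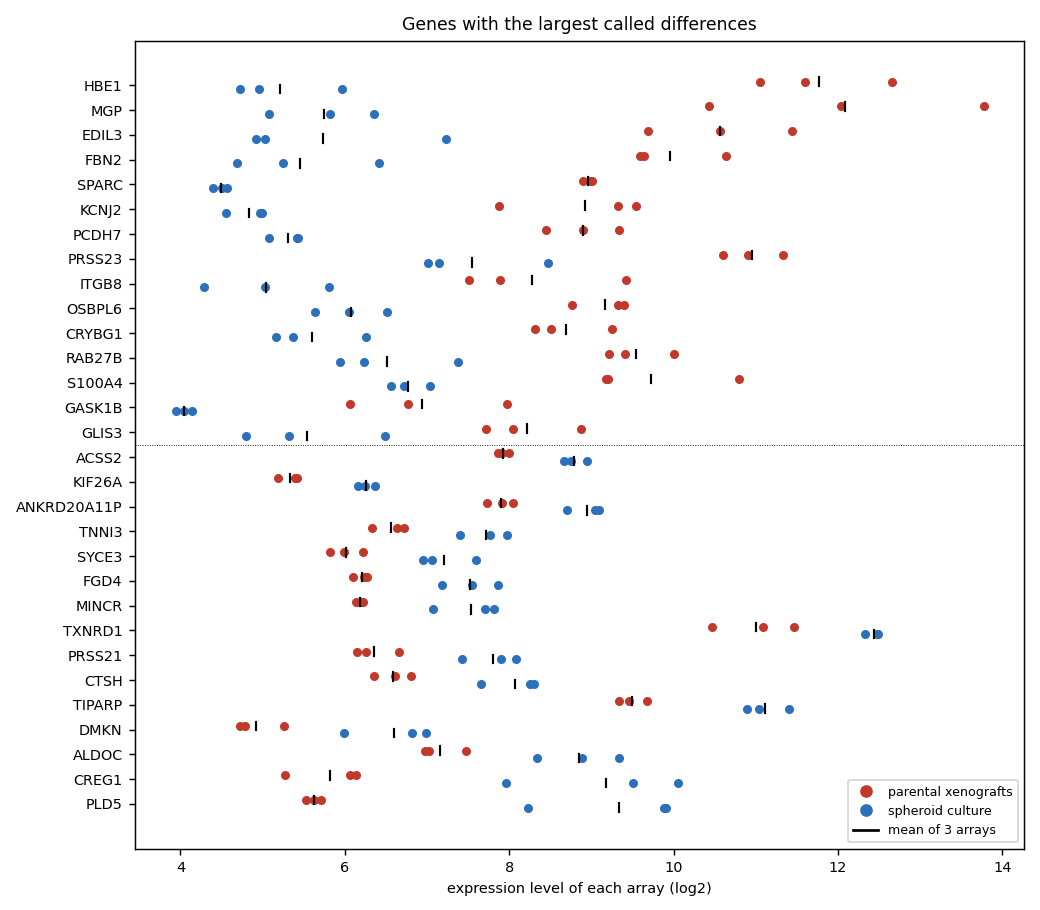
Expression level on each array (horizontal axis, log2) of the 15 named genes with the highest and the 15 with the lowest differences among called genes (vertical axis), parental xenografts in red above spheroid culture in blue, with the mean of 3 arrays as a black line. The 30 genes were chosen among those whose groups do not overlap. For many of the 30, such as HBE1, MGP, EDIL3, PRSS23, RAB27B, GLIS3, PLD5 and CREG1, spheroid culture replicate 1 is the spheroid point nearest to the tumours. For SPARC, S100A4 and TIPARP it is not.

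Of 26 measured matricellular proteins 4 rose and none fell, with a median difference of 0.05 over the list, which was -0.05 without parental xenograft replicate 1 or spheroid culture replicate 3. MGP, matrix Gla protein, which holds back calcification of soft tissue, read 13.78, 12.03 and 10.43 in parental xenografts and 6.36, 5.81 and 5.08 in spheroid culture. All 3 tumours were above all 3 spheroid cultures, with a wide spread between tumours (difference 6.33, SE 0.74, adjusted p = 0.021). Its other probe set was above 4 only in parental xenograft replicate 1, at 5.93, and with that probe set alone MGP was not called (difference 0.62, adjusted p = 0.61). EDIL3, a secreted ligand of integrins, read 10.56, 11.44 and 9.69 in parental xenografts and 7.23, 4.92 and 5.03 in spheroid culture. Spheroid culture replicate 1 was the highest of its group but stayed below every tumour (difference 4.83, SE 0.65, adjusted p = 0.031). THBS3, thrombospondin 3, rose by less, with 9.80, 9.99 and 9.90 in parental xenografts and 9.09, 9.07 and 8.93 in spheroid culture (difference 0.87, adjusted p = 0.039). Of these 4 calls, SPARC alone remained when parental xenograft replicate 2, or replicate 2 or 3 of spheroid culture, was left out. SPARC and MGP remained without parental xenograft replicate 1, and SPARC, MGP and EDIL3 without replicate 3.

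Microfibril genes held 2 calls among 15 measured, both fibrillins, and the list's median difference was 0.32. That median was -0.17 without _x_at and _s_at probe sets, where 1 of 13 genes was called, and was 0.06 with the mean of all probe sets, 0.195 after quantile normalisation again and 0.19 without parental xenograft replicate 3. There were 4 higher calls without spheroid culture replicate 1. The list also held 1 lower call without parental xenograft replicate 3, and 1 with a replicate block. FBN2, fibrillin 2, read 10.64, 9.63 and 9.59 in parental xenografts and 6.42, 5.25 and 4.69 in spheroid culture, with no overlap (difference 4.50, SE 0.45, adjusted p = 0.011). Its other probe sets were dim, with differences of -0.28 and 0.59. FBN1, fibrillin 1, which forms the main thread of microfibrils, read 9.86, 9.17 and 9.03 in parental xenografts and 7.91, 7.34 and 7.63 in spheroid culture (difference 1.73, SE 0.25, adjusted p = 0.036). MFAP2, which binds fibrillin, was also apart in the groups, with 9.88, 9.36 and 9.47 in parental xenografts and 9.20, 8.39 and 8.11 in spheroid culture, but was not called (difference 1.00, adjusted p = 0.16). The FBN1 call was lost without parental xenograft replicate 2 (adjusted p = 0.090) or spheroid culture replicate 3 (adjusted p = 0.098), and both calls without spheroid culture replicate 2 (adjusted p = 0.15 and 0.22).

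Among 32 measured collagens and collagen-processing genes 1 rose and none fell. Of the 32, 23 were above 0 and 11 were higher without overlap, against 9.63% of all genes. The median difference of the list was 0.28, against -0.07 over all genes. The list's median was 0.09 without parental xenograft replicate 1 and 0.12 without _x_at and _s_at probe sets. The list had 7 higher calls without spheroid culture replicate 1, COL6A2 among them (adjusted p = 0.047). The call on all 6 arrays was PLOD2, the lysyl hydroxylase that prepares collagen for stable cross-links. It read 10.46, 10.01 and 10.04 in parental xenografts and 8.96, 7.98 and 8.33 in spheroid culture (difference 1.75, SE 0.26, adjusted p = 0.036). COL6A2, a chain of collagen VI, read 10.10, 8.09 and 9.04 in parental xenografts and 6.97, 6.67 and 6.06 in spheroid culture, and was not called (difference 2.51, adjusted p = 0.057). COL3A1, the chain of collagen III, read 7.71, 7.88 and 6.28 in parental xenografts and 5.40, 5.43 and 5.19 in spheroid culture, also uncalled (difference 1.95, adjusted p = 0.066). The tumours exceeded the spheroid cultures in each of these 3 genes. No call was made among 29 matrix proteases and inhibitors, of which 8 were higher without overlap, against 9.63% of all genes. TIMP2, an inhibitor of matrix metalloproteinases, had 11.72, 11.57 and 10.42 in parental xenografts and 9.99, 7.75 and 7.50 in spheroid culture (difference 2.82, adjusted p = 0.093); with spheroid culture replicate 1 left out it was called (adjusted p = 0.0052). The PLOD2 call held only without spheroid culture replicate 1 (adjusted p = 0.0051); without any 1 of the other arrays its adjusted p ran from 0.073 to 0.22.

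The list of mesenchymal genes had 4 members that rose and none that fell among 20 measured, with a median difference of 0.48. In the fit of all 6 arrays no other of the 48 pathway lists had a higher median. The hypoxia list did when replicate 1 of the parental xenografts (0.62 against 0.51) or replicate 1 of spheroid culture (0.61 against 0.38) was left out. The actin list did without parental xenograft replicate 2 (0.43 against 0.42). The list of S100 proteins did without dim genes (0.60 against 0.36). Of the 20, 11 were higher in parental xenografts without overlap, against 9.63% of all genes. Besides SPARC, S100A4, a calcium-binding protein of motile cells, read 9.20, 10.80 and 9.18 in parental xenografts and 6.56, 7.04 and 6.72 in spheroid culture (difference 2.95, SE 0.41, adjusted p = 0.034). PRRX1, a homeobox factor of mesenchyme, read 8.97, 8.45 and 9.32 in parental xenografts and 7.61, 7.33 and 7.22 in spheroid culture (difference 1.53, SE 0.23, adjusted p = 0.038). SNAI2, a repressor of epithelial genes, was dim but tight, with 5.27, 5.21 and 5.23 in parental xenografts and 4.0, 4.10 and 4.21 in spheroid culture (difference 1.13, SE 0.13, adjusted p = 0.021). The groups did not overlap for any of these. None of 21 epithelial junction and keratin genes was called. KRT18, a keratin of simple epithelia, read 11.51, 10.28 and 10.77 in parental xenografts and 11.77, 11.60 and 11.60 in spheroid culture (difference -0.80, adjusted p = 0.25). Without parental xenograft replicate 1 the calls that remained were SPARC and S100A4, without replicate 2 also PRRX1, and without replicate 3 SPARC, S100A4 and SNAI2. SPARC was the sole call left without spheroid culture replicate 2 or replicate 3.

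Integrins and laminins, the receptors and basement membrane proteins through which cells hold a matrix, had 3 calls among 24 measured, all higher. ITGB8, the integrin beta chain that activates latent TGF-beta, read 7.51, 9.43 and 7.89 in parental xenografts and 5.81, 4.28 and 5.03 in spheroid culture. Parental xenograft replicate 2 was the highest, and the groups did not overlap (difference 3.24, SE 0.53, adjusted p = 0.042). ITGA1, the alpha chain of a collagen receptor, read 6.63, 6.87 and 7.41 in parental xenografts and 5.44, 5.50 and 5.35 in spheroid culture (difference 1.54, SE 0.21, adjusted p = 0.031). LAMC1, the laminin gamma 1 chain, read 11.02, 10.83 and 10.56 in parental xenografts and 9.89, 9.43 and 9.73 in spheroid culture (difference 1.12, SE 0.18, adjusted p = 0.040). Averaged over its probe sets, ITGB8 had a difference of 0.71 (adjusted p = 0.18). No call of the list remained without parental xenograft replicate 2, spheroid culture replicate 2 or its replicate 3 (adjusted p from 0.087 to 0.24). ITGA1 alone remained without parental xenograft replicate 1, and ITGA1 and LAMC1 without replicate 3.

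Of 21 measured actin cytoskeleton genes and targets of serum response factor 4 rose and none fell. The median difference was 0.34, with 16 genes above 0, 11 higher without overlap and 1 lower without overlap. Over all genes, 9.63% were higher and 10.9% lower without overlap. Cyclic loess left none of the list called and quantile normalisation again left 1, and without _x_at and _s_at probe sets 1 of 15 was called and the median was 0.18. TPM1, tropomyosin 1, which lines actin filaments, read 12.09, 11.36 and 11.15 in parental xenografts and 9.43, 9.19 and 9.83 in spheroid culture (difference 2.05, SE 0.27, adjusted p = 0.031). MYL9, a regulatory light chain of non-muscle and smooth muscle myosin, read 11.03, 10.09 and 10.17 in parental xenografts and 8.42, 8.86 and 9.08 in spheroid culture (difference 1.65, SE 0.28, adjusted p = 0.047). Every tumour exceeded every spheroid culture for both. TAGLN2, transgelin 2, rose by 1.13 (adjusted p = 0.036) and TGFB1I1, a focal adhesion adaptor, by 0.91 (adjusted p = 0.0497). Of 22 YAP and TEAD targets 1 rose, PTPN14, a phosphatase that itself restrains YAP. PTPN14 read 12.51, 12.01 and 11.68 in parental xenografts and 10.77, 10.42 and 10.64 in spheroid culture (difference 1.46, SE 0.22, adjusted p = 0.038). All 5 calls were lost without parental xenograft replicate 2, spheroid culture replicate 2 or its replicate 3 (adjusted p from 0.064 to 0.29). TPM1 alone remained without parental xenograft replicate 1. Without parental xenograft replicate 3 MYL9 was lost, and without spheroid culture replicate 1 MYL9 and TGFB1I1 were lost.

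**Figure D4:**
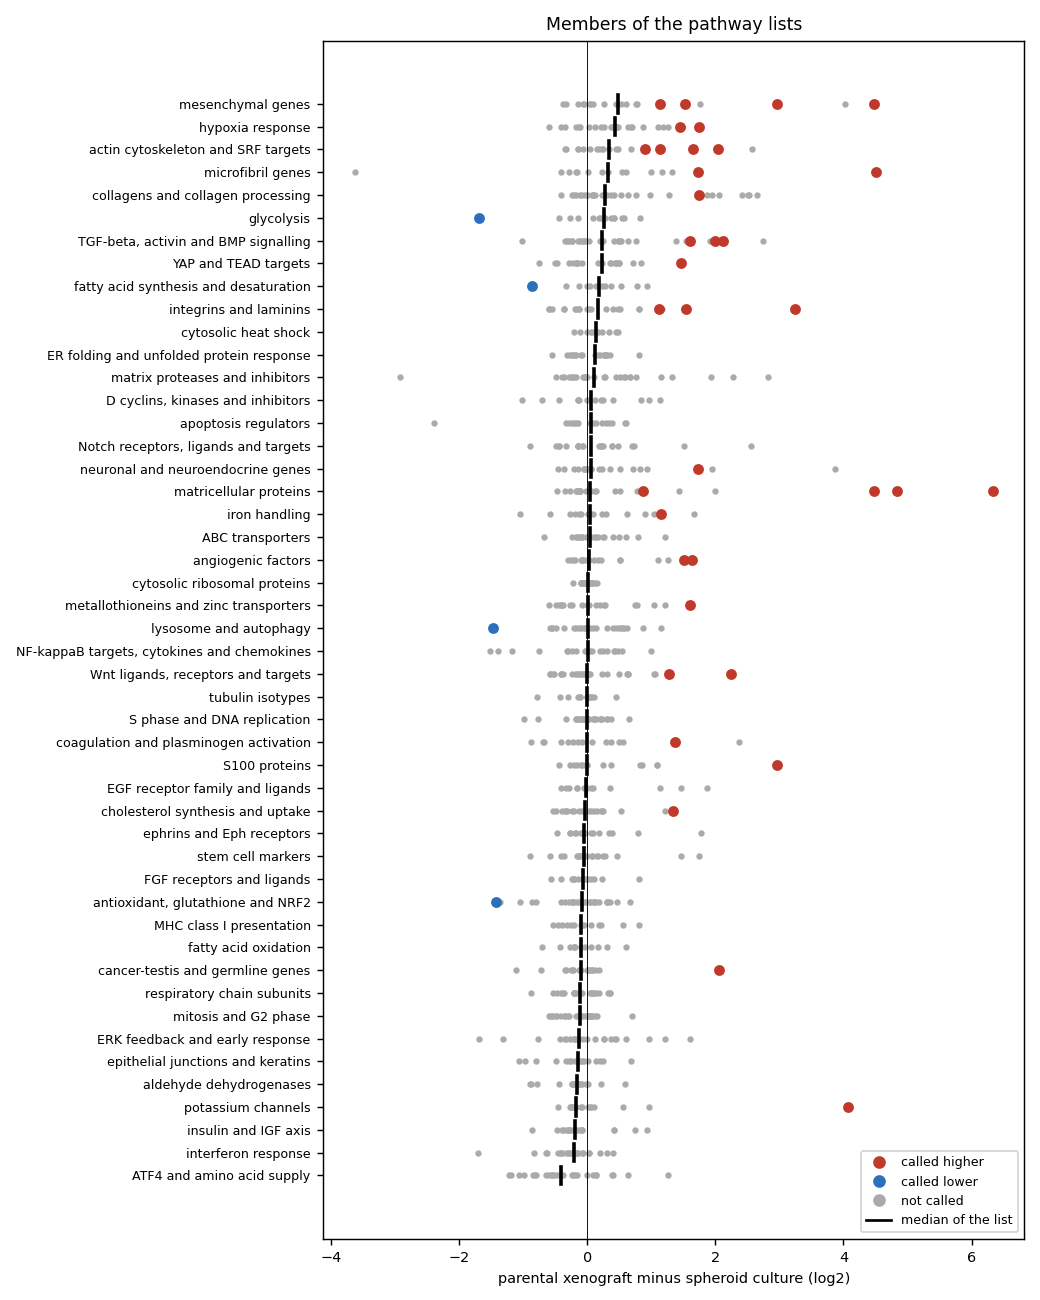
Difference between parental xenografts and spheroid culture (horizontal axis, log2) of each measured member of the 48 pathway lists (vertical axis, ordered by median), with called members in red (higher) or blue (lower) and the median as a black line. Medians in this fit of all 6 arrays run from 0.48 for mesenchymal genes to -0.42 for ATF4 and amino acid supply, and 25 of the 48 lists hold no called member.

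In the TGF-beta, activin and BMP list a ligand and a pair of receptors rose among 32 measured genes, and none fell. TGFB2, a TGF-beta ligand, read 8.59, 8.35 and 7.67 in parental xenografts and 6.52, 6.83 and 6.46 in spheroid culture (difference 1.60, SE 0.24, adjusted p = 0.038). TGFBR1, the type I receptor for TGF-beta, read 10.70, 9.71 and 9.86 in parental xenografts and 8.53, 7.68 and 8.08 in spheroid culture (difference 1.99, SE 0.30, adjusted p = 0.038). BMPR2, the type II receptor for BMPs, read 10.90, 10.68 and 11.18 in parental xenografts and 9.59, 8.10 and 8.71 in spheroid culture (difference 2.12, SE 0.34, adjusted p = 0.040). For each of the 3 genes all tumours were above all spheroid cultures. Over the list 9 genes were higher and 0 lower without overlap, against 9.63% and 10.9% of all genes. All 3 calls were lost without parental xenograft replicate 1 or 2, or without spheroid culture replicate 2 or 3 (adjusted p from 0.060 to 0.23), and TGFB2 alone remained without parental xenograft replicate 3. With spheroid culture replicate 1 left out, 7 genes of the list were called higher, as without dim genes, with an intensity trend or with a replicate block. Quantile normalisation again and the mean of all probe sets each left 0 genes of the list called, and cyclic loess left 1.

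Other growth factor and receptor genes gave few calls. Of 33 Wnt genes 2 rose: the ligand WNT5B, with 8.84, 8.45 and 7.44 in parental xenografts and 6.59, 5.74 and 5.68 in spheroid culture (difference 2.24, adjusted p = 0.047), and the coreceptor LRP6, with 10.25, 9.91 and 9.96 in parental xenografts and 8.81, 8.55 and 8.91 in spheroid culture (difference 1.28, adjusted p = 0.029). Of 20 angiogenic factors 2 rose. VEGFC, a growth factor for lymphatic endothelium, read 8.59, 9.20 and 8.73 in parental xenografts and 7.55, 7.08 and 7.01 in spheroid culture (difference 1.63, adjusted p = 0.031). PDGFC, a growth factor for mesenchymal cells, read 11.86, 11.78 and 11.22 in parental xenografts and 10.09, 9.99 and 10.25 in spheroid culture (difference 1.51, adjusted p = 0.030). VEGFA, the main vessel growth factor, read 11.14, 9.80 and 9.73 in parental xenografts and 9.69, 8.37 and 8.87 in spheroid culture and was not called (difference 1.25, adjusted p = 0.25). No member of the Notch, ephrin, EGF receptor, FGF, or insulin and IGF lists was called on all 6 arrays. The nearest were the Notch ligand JAG1 (difference 1.51, adjusted p = 0.059, or 0.035 with spheroid culture replicate 1 left out) and the Notch target HEY1 (difference 2.56, adjusted p = 0.078). None of the 4 calls remained without parental xenograft replicate 2, spheroid culture replicate 2 or its replicate 3 (adjusted p from 0.076 to 0.29), and VEGFC alone remained without parental xenograft replicate 1.

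Of 27 measured hypoxia response genes 2 rose and none fell. Of the 27, 21 were above 0 and 9 were higher without overlap, against 9.63% of all genes. The list's median difference was 0.44, or 0.25 without spheroid culture replicate 3. PLOD2, described above with the collagen enzymes, is also a hypoxia target. PFKFB3, the enzyme that makes the activator of phosphofructokinase, read 9.12, 8.74 and 9.0 in parental xenografts and 7.55, 7.15 and 7.80 in spheroid culture (difference 1.45, SE 0.20, adjusted p = 0.033). EGLN1, the oxygen sensor that marks hypoxia-inducible factor for destruction, read 10.52, 10.77 and 10.87 in parental xenografts and 9.86, 9.71 and 9.99 in spheroid culture, just missing the threshold (difference 0.87, adjusted p = 0.052). The groups did not overlap for any of the 3. Glycolysis had a median difference of 0.26 over 16 genes. LDHA, lactate dehydrogenase A, read 14.08, 14.16 and 14.03 in parental xenografts and 13.44, 13.71 and 13.39 in spheroid culture (difference 0.58, adjusted p = 0.12). ALDOC, the brain form of aldolase, was the sole call of that list and went the other way, with 7.03, 7.47 and 6.97 in parental xenografts and 8.34, 9.33 and 8.89 in spheroid culture (difference -1.70, SE 0.26, adjusted p = 0.039). The calls of PLOD2, PFKFB3 and ALDOC held only without spheroid culture replicate 1; without any 1 of the other 5 arrays their adjusted p ran from 0.064 to 0.22.

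The promoters of both called hypoxia genes are shown with the core of the hypoxia response element, ACGTG or GCGTG on either strand, in capitals. The ACGTG form also lies within the E-box CACGTG. In the 250 bases before the start, RefSeq on GRCh38.p14 gave 1 match for PFKFB3, at chr10:6144671-6144920 on the plus strand, 168 bases before the start. PLOD2, at chr3:146161185-146161434 on the minus strand, had 3 matches, 213, 200 and 146 bases before the start. Of all 27305 promoters 43.1% held at least 1 match, and 7.89% held at least 3. Among the hypoxia genes with an entry 16 of 21 held a match, or 76.2%.
PFKFB3: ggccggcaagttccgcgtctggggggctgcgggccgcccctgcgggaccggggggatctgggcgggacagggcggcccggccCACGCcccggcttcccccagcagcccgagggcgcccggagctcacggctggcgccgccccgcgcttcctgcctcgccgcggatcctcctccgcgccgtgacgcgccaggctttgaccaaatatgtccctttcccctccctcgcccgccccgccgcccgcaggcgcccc
PLOD2: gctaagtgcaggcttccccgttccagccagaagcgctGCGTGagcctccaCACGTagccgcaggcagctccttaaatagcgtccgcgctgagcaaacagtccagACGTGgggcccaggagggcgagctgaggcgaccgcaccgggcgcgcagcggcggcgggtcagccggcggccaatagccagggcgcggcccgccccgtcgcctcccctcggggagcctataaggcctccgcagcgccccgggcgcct

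The remaining leading genes that rose are given here, with SYT1 and SCG2 from the neuronal list. KCNJ2, an inward rectifier potassium channel, read 9.55, 9.33 and 7.88 in parental xenografts and 4.97, 4.99 and 4.56 in spheroid culture (difference 4.08, SE 0.40, adjusted p = 0.011). It was the sole call among 19 potassium channels. PCDH7, a protocadherin of cell contacts, read 9.33, 8.45 and 8.90 in parental xenografts and 5.43, 5.41 and 5.08 in spheroid culture (difference 3.59, SE 0.23, adjusted p = 0.0024), and all 5 of its probe sets had the same sign. SYT1, the calcium sensor of vesicle release, read 8.53, 8.60 and 8.28 in parental xenografts and 6.85, 6.72 and 6.68 in spheroid culture (difference 1.72, SE 0.15, adjusted p = 0.0069) and was the sole call among 22 neuronal and neuroendocrine genes. SCG2, a granin of secretory granules, read 13.33, 13.06 and 12.55 in parental xenografts and 10.94, 8.03 and 8.37 in spheroid culture, just missing the threshold (difference 3.86, adjusted p = 0.0502, or 6.2e-04 with spheroid culture replicate 1 left out). PRSS23, a secreted serine protease, rose by 3.41 (adjusted p = 0.017), OSBPL6, an oxysterol-binding protein relative, by 3.09 (adjusted p = 0.0069), and RAB27B, a GTPase of vesicle secretion, by 3.02 (adjusted p = 0.026). CRYBG1 rose by 3.09, GASK1B, a Golgi kinase relative, by 2.90 and GLIS3, a zinc finger transcription factor, by 2.68 (adjusted p = 0.016, 0.036 and 0.043). In these genes every tumour lay above every spheroid culture on the probe set used. On the other GLIS3 probe set the groups overlapped, with 6.68, 7.74 and 6.79 in parental xenografts and 7.52, 5.42 and 5.09 in spheroid culture. Without spheroid culture replicate 2 the adjusted p was 0.13 for KCNJ2 and 0.092 for SYT1. Without spheroid culture replicate 3 it was 0.060 for KCNJ2. Of the 15 named genes that rose most, 11, 9 and 13 were still called without parental xenograft replicates 1, 2 and 3, and 15, 3 and 5 without spheroid culture replicates 1, 2 and 3.

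Single members of other pathway lists rose as well. LSS, lanosterol synthase, was the sole call of 20 cholesterol genes, with 10.28, 9.98 and 9.81 in parental xenografts and 9.13, 8.46 and 8.47 in spheroid culture (difference 1.34, adjusted p = 0.042). SLC39A10, a zinc importer, read 11.13, 10.37 and 11.33 in parental xenografts and 9.42, 9.20 and 9.37 in spheroid culture (difference 1.61, adjusted p = 0.038). F2R, the thrombin receptor, rose by 1.36 (adjusted p = 0.039) and HFE, a regulator of iron uptake, by 1.15 (adjusted p = 0.037). GAGE1, a cancer-testis antigen, rose by 2.05 (adjusted p = 0.047), but near-identical copies of this family make its probe set uncertain. These 5 calls were lost without spheroid culture replicate 2 or 3 (adjusted p from 0.092 to 0.28). Of the 5, SLC39A10 alone remained without parental xenograft replicate 2, none without replicate 1, and F2R and HFE without replicate 3.

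PLD5 and CREG1 had the lowest differences among called genes. PLD5, a phospholipase D relative, read 5.63, 5.53 and 5.71 in parental xenografts and 8.23, 9.88 and 9.91 in spheroid culture. The tumours lay close together and the spheroid cultures were all higher, replicate 1 the least (difference -3.72, SE 0.41, adjusted p = 0.017). PLD5's other probe set was dim and did not show it (difference -0.09). That one read 4.11, 4.18 and 4.16 in parental xenografts and 4.34, 4.31 and 4.07 in spheroid culture. CREG1, a lysosomal glycoprotein, read 6.06, 5.28 and 6.14 in parental xenografts and 7.97, 9.50 and 10.05 in spheroid culture (difference -3.35, SE 0.49, adjusted p = 0.036). CTSH, the lysosomal protease cathepsin H, read 6.35, 6.61 and 6.80 in parental xenografts and 7.65, 8.30 and 8.25 in spheroid culture (difference -1.48, SE 0.21, adjusted p = 0.036). It was the sole call among 26 lysosome and autophagy genes. Of these 26, 8 were higher and 3 lower without overlap, against 9.63% and 10.9% of all genes. TIPARP, an ADP-ribosyltransferase induced by the aryl hydrocarbon receptor, read 9.68, 9.34 and 9.46 in parental xenografts and 11.40, 11.04 and 10.89 in spheroid culture (difference -1.62, SE 0.18, adjusted p = 0.017). ACSS2, which makes acetyl-CoA from acetate, read 7.87, 7.92 and 7.99 in parental xenografts and 8.66, 8.95 and 8.75 in spheroid culture (difference -0.86, SE 0.14, adjusted p = 0.040). None of these 5 genes was called without parental xenograft replicate 2 or, in spheroid culture, replicate 2 (adjusted p from 0.077 to 0.24). Without spheroid culture replicate 3 TIPARP alone was called. PLD5 and TIPARP remained without parental xenograft replicate 1, and PLD5, TIPARP and CTSH without replicate 3.

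TXNRD1, thioredoxin reductase 1, an NRF2 target that keeps thioredoxin reduced, was the brightest gene that fell. It read 10.47, 11.09 and 11.47 in parental xenografts and 12.49, 12.33 and 12.48 in spheroid culture, which lay close together above the tumours (difference -1.43, SE 0.24, adjusted p = 0.047). It was the sole call among 34 antioxidant and glutathione genes. Of these 34, 7 were lower and 2 higher without overlap, against 10.9% and 9.63% of all genes. GSTM3, a glutathione transferase, read 7.53, 7.76 and 8.61 in parental xenografts and 9.17, 9.18 and 9.63 in spheroid culture (difference -1.36, adjusted p = 0.078). NQO1, the quinone reductase often used as an NRF2 readout, read 11.41, 11.68 and 11.11 in parental xenografts and 11.79, 12.53 and 12.46 in spheroid culture (difference -0.86, adjusted p = 0.15). The TXNRD1 call remained only without parental xenograft replicate 3 (adjusted p = 0.030); without any 1 of the other 5 arrays its adjusted p ran from 0.053 to 0.24. It was also lost after quantile normalisation again, median centring or cyclic loess. The TXNRD1 promoter is shown with the core of the antioxidant response element, TGACNNNGC on either strand, in capitals. Its 250 bases before the start, at chr12:104215529-104215778 on the plus strand of GRCh38.p14 (RefSeq), held 1 match, 99 bases before the start. The core was present in 11% of the 27305 promoters and in 6 of the 26 antioxidant genes with an entry, or 23.1%.
TXNRD1: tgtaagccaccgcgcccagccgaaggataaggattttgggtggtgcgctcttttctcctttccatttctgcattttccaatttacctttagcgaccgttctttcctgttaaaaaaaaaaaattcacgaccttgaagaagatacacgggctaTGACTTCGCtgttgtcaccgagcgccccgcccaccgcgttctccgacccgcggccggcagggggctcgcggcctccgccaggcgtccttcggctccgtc

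The other leading genes that fell have roles outside these lists. DMKN, a protein secreted in the epidermis, fell by 1.67 (adjusted p = 0.043), PRSS21, a membrane serine protease of the testis, by 1.45 (adjusted p = 0.036) and FGD4, an exchange factor for CDC42, by 1.32 (adjusted p = 0.036). MINCR, a long non-coding RNA, fell by 1.34 (adjusted p = 0.038), SYCE3, a protein of the synaptonemal complex, by 1.19 (adjusted p = 0.048) and TNNI3, cardiac troponin I, by 1.16 (adjusted p = 0.042). KIF26A, a kinesin relative, fell by 0.93 (adjusted p = 0.038). ANKRD20A11P fell by 1.05 (adjusted p = 0.039), but it is a pseudogene of a family of near-identical copies and its probe set is uncertain. Of the 15 named genes that fell most, the number still called was 3, 0 and 4 without parental xenograft replicates 1, 2 and 3, and 14, 0 and 1 without spheroid culture replicates 1, 2 and 3.

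Two-sided tests gave no call in 25 of the 48 pathway lists with all 6 arrays. That number was 12 with spheroid culture replicate 1 left out, 46 with replicate 2 of that group left out, and 41 with parental xenograft replicate 2 left out. Genes of ATF4 and amino acid supply had a median difference of -0.42 over 27 genes, of which 20 were at or below 0. Of the 27, 8 were lower and 3 higher without overlap, against 10.9% and 9.63% of all genes. Leaving out spheroid culture replicate 1 gave 3 lower calls. The list's median was -0.24 without spheroid culture replicate 3 and also without _x_at and _s_at probe sets, where 1 gene was called lower. SESN2, a stress-induced inhibitor of mTORC1, read 8.22, 8.06 and 8.77 in parental xenografts and 9.32, 9.38 and 9.55 in spheroid culture (difference -1.07, adjusted p = 0.058). CHAC1, which breaks down glutathione, read 6.83, 6.47 and 6.72 in parental xenografts and 7.78, 7.45 and 7.26 in spheroid culture (difference -0.82, adjusted p = 0.089). Both were apart in the 2 groups but were not called. Interferon response genes had a median of -0.21 over 25 genes with none called. Of the 25, 20 were at or below 0, and 6 were lower and 1 higher without overlap. BST2, an interferon-induced tether of virus particles, read 6.0, 7.49 and 7.83 in parental xenografts and 8.64, 8.86 and 8.95 in spheroid culture (difference -1.71, adjusted p = 0.11). Among NF-kappaB targets ICAM1, an adhesion receptor for leukocytes, read 9.12, 8.48 and 8.33 in parental xenografts and 9.68, 10.05 and 9.72 in spheroid culture (difference -1.17, adjusted p = 0.063).

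None of the 23 measured stem cell markers was called, and their median difference was -0.05, or 0.01 after median centring and 0.04 after cyclic loess. CD44, the hyaluronan receptor, came nearest, with 10.81, 11.09 and 11.14 in parental xenografts and 10.08, 8.88 and 8.84 in spheroid culture. The groups did not overlap, with replicate 1 the highest spheroid culture, and the difference was 1.75 (SE 0.32, adjusted p = 0.055). CD44 was called without spheroid culture replicate 1 (adjusted p = 0.0017), and its adjusted p was 0.031 to 0.033 with an intensity trend, without dim genes or with all 12 arrays. With an intensity trend, and also without dim genes, the list held 1 lower call besides 1 higher call. Of its 13 probe sets 12 had the same sign, but only 4 kept the groups apart. The 6 others with a mean level above 8 had smaller differences, 0.59 to 1.19, and for 5 of them the groups overlapped. ALDH1A3, an aldehyde dehydrogenase, read 5.07, 5.56 and 5.33 in parental xenografts and 6.25, 6.05 and 6.38 in spheroid culture (difference -0.90, adjusted p = 0.061). The list of 18 aldehyde dehydrogenases held no call on all 6 arrays. It held 1 lower call with an intensity trend and 1 without dim genes. PROM1, which encodes CD133, read 4.36, 4.14 and 4.08 in parental xenografts and 4.43, 4.08 and 4.21 in spheroid culture, below the lower quartile on all 6 arrays. ALDH1A1 was as dim, at 4.06 to 4.32 in parental xenografts and 4.23 to 4.46 in spheroid culture. The pluripotency factors SOX2 and NANOG overlapped between the groups (differences 0.07 and 0.07, adjusted p = 0.86 and 0.88).

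Cell division and housekeeping lists gave no call. The median difference was -0.01 over 26 S phase genes, 0.06 after median centring, and -0.12 over 27 genes of mitosis and G2 phase. These medians were -0.19 and -0.25, with 1 gene called lower in each list, when spheroid culture replicate 1 was left out, and 0.11 and 0.05 when replicate 2 was. Of the 27 genes of mitosis and G2 phase, 17 were at or below 0. In that list 7 were lower and 1 higher without overlap, against 10.9% and 9.63% of all genes. Among the 26 S phase genes 1 was lower and 2 higher without overlap. CCNE1, the cyclin of S phase entry, read 8.08, 7.54 and 7.78 in parental xenografts and 8.40, 8.84 and 9.16 in spheroid culture (difference -1.0, adjusted p = 0.094). CCND1, cyclin D1, which drives exit from G1, read 10.55, 10.96 and 10.54 in parental xenografts and 9.58, 9.68 and 9.92 in spheroid culture (difference 0.96, adjusted p = 0.052). The pair went opposite ways without overlap, and neither passed. Cytosolic ribosomal proteins ranged only from -0.22 to 0.16 in 22 genes. GAPDH read 14.98, 15.06 and 14.96 in parental xenografts and 14.87, 14.97 and 14.89 in spheroid culture (difference 0.09, adjusted p = 0.76).

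The arrays read human sequence, and tumours contain host cells whose RNA may bind some probes. Of 16 measured fibroblast markers 1 rose: FAP, a protease of activated fibroblasts, with 7.58, 6.78 and 7.45 in parental xenografts and 5.51, 5.57 and 5.89 in spheroid culture (difference 1.61, SE 0.23, adjusted p = 0.036). The mean level of the fibroblast list was 6.01 to 6.64 in parental xenografts and 5.83 to 6.01 in spheroid culture. Of its 16 genes 4 were higher without overlap, against 9.63% of all genes. The 4 are FAP, COL3A1, given above, COL6A3 and POSTN, and only FAP was called. COL1A1, a chain of collagen I, overlapped between the groups: it read 8.82, 8.71 and 8.32 in parental xenografts and 8.45, 8.68 and 8.46 in spheroid culture (adjusted p = 0.84). The part of fibroblast RNA in the matrix results was not tested. No marker was called among 13 endothelial genes (mean level 5.50 to 5.84 in parental xenografts and 5.74 to 5.94 in spheroid culture) or 12 myeloid genes (5.34 to 5.63 in parental xenografts and 5.45 to 5.68 in spheroid culture). The same was true of 12 lymphocyte, 9 skeletal muscle, 9 adipocyte and 9 keratinocyte markers. All 9 adipocyte markers were at or below 0 (median difference -0.24), and 4 were lower without overlap, against 10.9% of all genes. The adipocyte mean level was 6.30 to 6.57 in parental xenografts and 6.71 to 6.88 in spheroid culture. Of the 12 lymphocyte markers 11 were at or below 0, and 3 were lower without overlap. PECAM1, the endothelial adhesion protein CD31, read 7.20, 6.97 and 6.83 in parental xenografts and 7.50, 6.99 and 6.97 in spheroid culture (adjusted p = 0.73). The FAP call was lost without parental xenograft replicate 1 or 3, or spheroid culture replicate 2 or 3 (adjusted p from 0.066 to 0.22).

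Levels in the other groups of the series, which took no part in the fit, differed from one leading gene to another. HBE1 read 11.61, 11.22 and 11.80 in xenografts grown from spheroid cells and 5.35, 5.10 and 5.10 in parental culture, so both kinds of tumour were bright and both cultures dim. SPARC read 4.48, 4.80 and 4.85 in spheroid xenografts and 4.64, 4.96 and 4.83 in parental culture, near its level in spheroid culture. KCNJ2 was likewise highest in parental xenografts, with 5.11, 4.67 and 4.64 in spheroid xenografts and 6.69, 6.10 and 5.84 in parental culture. S100A4 read 9.56, 8.59 and 9.36 in spheroid xenografts and 7.20, 6.35 and 6.38 in parental culture, again high in both kinds of tumour. FBN2 and PCDH7 lay between the extremes in the other groups: FBN2 averaged 7.02 in spheroid xenografts and 8.13 in parental culture, and PCDH7 averaged 6.21 in spheroid xenografts and 7.12 in parental culture. PLD5 read 8.11, 8.94 and 9.32 in spheroid xenografts and 6.75, 5.49 and 4.98 in parental culture, so the groups from spheroid cells were high and those from parental cells low. TXNRD1 averaged 11.29 in spheroid xenografts and 11.42 in parental culture, both below every spheroid culture. These levels are a description, with no test between these groups.

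**Figure D5:**
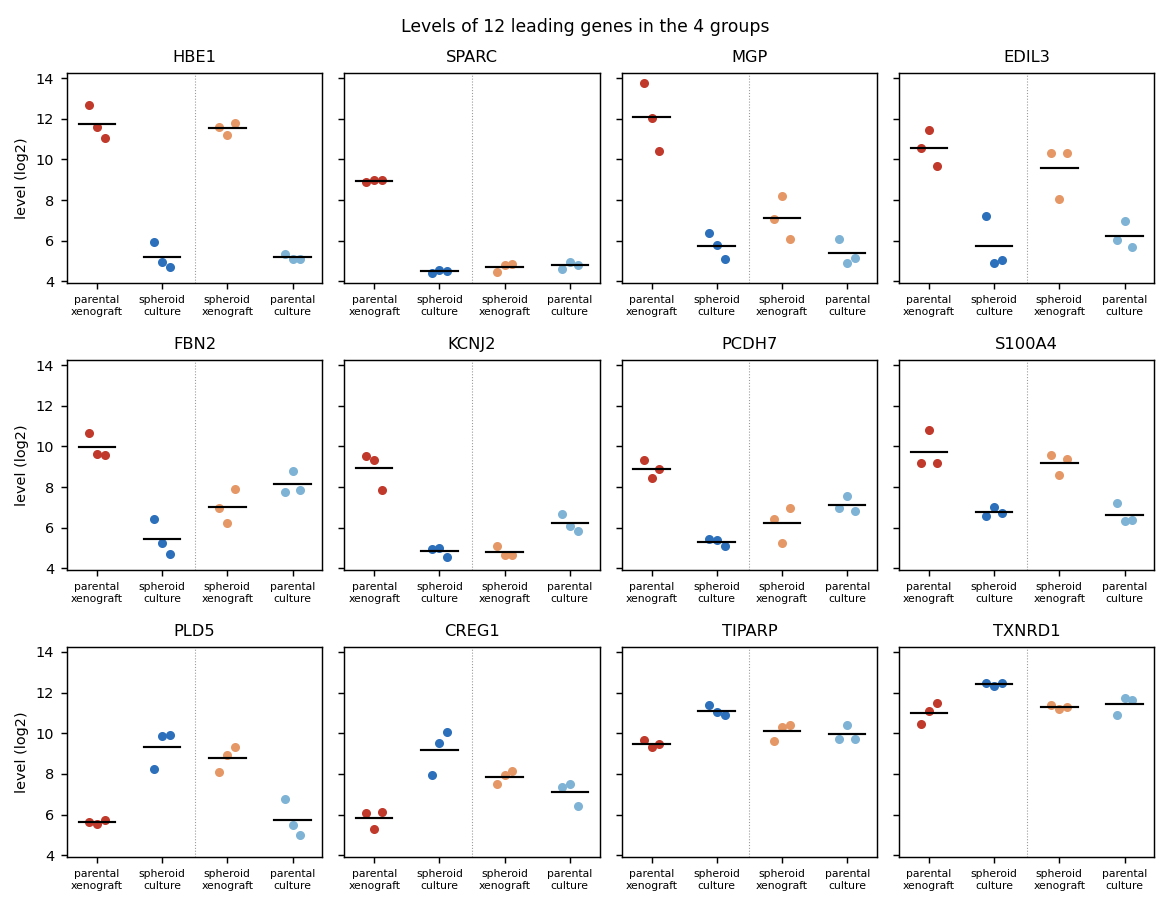
Expression level (vertical axis, log2) of 12 leading genes on all 12 arrays, with parental xenografts left of spheroid culture, and the spheroid xenografts and parental cultures, which took no part in the fit, right of the dotted line; black lines are means of 3 arrays. HBE1 is above 11 in both kinds of xenograft, SPARC is near 9 only in parental xenografts, and PLD5 is above 8 in every sample grown from spheroid cells.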

How the data were processed

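The authors deposited log2 values, 1 for each probe set on each array; the submitters' processing notes name RMA and affy, without versions. The array annotation gave 1 symbol for 41097 of 54675 probe sets, several for 1801 and none for 11777; symbols were updated by gene ID for 41043 through a GRCh38.p14 gene table. Each of 19775 genes was read by that 1-symbol probe set whose mean over the 12 arrays was highest, and dim genes were kept. R 4.3.3 and limma 3.58.1 (lmFit, eBayes) fitted 2 group means to the 6 arrays, with 4 residual degrees of freedom and a median SE of 0.17, and precision is limited by the number of arrays. The fit was tested on simulated data with noise drawn independently for each gene and array. That test does not cover variation shared between arrays or an outlying array.

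The comparison and the 58 lists (48 of pathways, 10 of cell type markers; 1057 of 1157 genes measured) were chosen with earlier results of these data known. Named genes are the 15 highest and 15 lowest called differences with no overlap and not opposed by most of the gene's probe sets, up to 4 called members each way per list, the members with the lowest p up to 3 where fewer were called, the brightest cell type markers and fixed markers. Left out were symbols starting with LOC, FAM or KIAA, containing orf, or ending in -AS1 or -IT1. Alternatives were other normalisations, probe set choices and filters, all 12 arrays, an intensity trend, a replicate block and each array left out.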

Additional observations from a re-analysis of the deposited data

How the results depend on the processing

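No called gene named here changed direction in any alternative run. Against 164 calls (147 higher, 17 lower), quantile normalisation again gave 62 (51 higher, 11 lower), cyclic loess 58 (54 and 4), the mean of all probe sets 86 (75 and 11), no _x_at or _s_at probe sets 101 (89 and 12), and no dim genes 272 (240 and 32). All 12 arrays in the fit gave 29 lower calls and an intensity trend 27. The fits shared 61 calls with the 164 after quantile normalisation, 56 after cyclic loess and 103 with all 12 arrays. Of the 30 leading genes, 21 were still called after quantile normalisation, 26 after median centring and 15 after cyclic loess. Leaving out 1 array gave 4 to 443 calls, 4 to 319 higher and 0 to 124 lower. A replicate block gave 319 calls (262 higher, 57 lower), 138 of them among the 164. The labels do not say that same-numbered samples are paired. Deviations of same-numbered arrays correlated at 0.08, 0.18 and 0.37. The same number gave the best match for parental xenograft replicates 1 and 3. Parental xenograft replicate 2 correlated at 0.19 with spheroid culture replicate 1 and at 0.18 with replicate 2. The second principal component of the 6 arrays held 26% of the variance. On it replicates 1, 2 and 3 lay at 21.2, 9.4 and -37.0 in parental xenografts and at 25.5, 2.8 and -21.9 in spheroid culture. The order by number was thus the same in both groups, and the main fit, without a block, leaves such variation in its error. Whether same-numbered samples share a batch was not tested. Apart from what the construction changes (fewer arrays, fewer or other genes tested), the cause was not tested. Median centring gave 182 calls and the probe set chosen on the 6 arrays 167. Precision is limited by 3 arrays a group, and the deposited values carry no detection calls to mark dim genes.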

Other observations

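The 3 parental xenografts differed among themselves in some matrix genes, named here after their values were seen. MMP2, gelatinase A, read 12.36, 7.99 and 7.76 in parental xenografts and 7.45, 7.66 and 7.21 in spheroid culture, and COL6A3, a chain of collagen VI, read 9.59, 6.0 and 5.81 in parental xenografts and 5.24, 4.93 and 5.05 in spheroid culture. In both, parental xenograft replicate 1 stood far above the other tumours (adjusted p = 0.46 for MMP2 and 0.34 for COL6A3). MMP1, interstitial collagenase, was high in another tumour, with 5.54, 7.04 and 10.98 in parental xenografts and 10.20, 11.15 and 10.99 in spheroid culture (adjusted p = 0.32). MFAP5, a microfibril protein, shared this order, with 5.80, 6.73 and 10.12 in parental xenografts and 9.98, 11.61 and 11.93 in spheroid culture (difference -3.63, adjusted p = 0.16). For MMP1 and MFAP5 the groups overlapped through parental xenograft replicate 3.

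FN1, fibronectin, a main glycoprotein of the matrix, also named after its values were seen, read 13.70, 12.75 and 12.09 in parental xenografts and 11.03, 7.93 and 7.49 in spheroid culture. The groups did not overlap, but spheroid culture replicate 1 was far above the other spheroid cultures, and FN1 was not called (difference 4.03, SE 0.86, adjusted p = 0.083). ANKRD37, a hypoxia target, showed another order, with 9.17, 9.30 and 9.13 in parental xenografts and 6.47, 8.03 and 8.69 in spheroid culture, where replicate 1 was the lowest (difference 1.47, adjusted p = 0.22).

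Some called genes outside the lists, also picked after their values were seen and forming no group, were these. SEMA3A, a secreted semaphorin, rose by 2.19 and ROBO1, a receptor for Slit proteins, by 2.12. NECTIN3, a junction protein, rose by 1.88, FAT1, a giant cadherin, by 1.35, and PLEC, plectin, by 1.72. DST, dystonin, rose by 1.5, SVIL, supervillin, by 1.92 and MSN, moesin, by 1.03. None of these 8 genes was called without spheroid culture replicate 2.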
